A study of Mus musculus with 2 samples.

Results

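The 10 miRNA genes Mir200a, Mir200b, Mir200c, Mir141, Mir429, Mir192, Mir194-1, Mir194-2, Mir215 and Mir122 are known from epithelium and liver, and were followed here in the adrenal gland. They were chosen by name, and each was found as 1 row among the 2202 miRNA genes counted. Both libraries came from adrenal glands of female mice aged 25 days of the strain B6CASTF1/J, a hybrid of a laboratory strain with the wild-derived CAST strain, with no treatment or altered allele given. The labels number them as biological replicates 1 and 2 of 1 group, from separately numbered animals with the same donor identifier, and give no contrast. The question was therefore how much of these lineage-marker miRNAs a whole adrenal gland held, and how far its 2 libraries differed in them. MicroRNA sequencing of total RNA below 30 nucleotides was the assay.

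A miRNA is cut from a hairpin and guides the silencing of messenger RNAs that match its seed, bases 2 to 8 of the mature strand. The miR-200 family is made in epithelial cells, where it represses the transcription factors Zeb1 and Zeb2 and so holds cells in the epithelial state. miR-192, miR-194 and miR-215 are abundant in intestine, liver and kidney epithelium. miR-122 is the dominant miRNA of hepatocytes. The adrenal cortex is made of steroid-producing cells of mesodermal origin and the medulla of neural crest chromaffin cells. The gland lies against the kidney, and on the right side also close to the liver.

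The mature strands are shown first, because the genes fall into groups by seed and because the likeness of the strands bears on the counts. RefSeq's table (GRCm38.p6) matched 9 of the 10 genes; Mir122 was not matched. For each matched gene the arm known as the main product is given, with the seed in capitals. Mir200b, Mir200c and Mir429 share the first seed, Mir200a and Mir141 the second, Mir192 and Mir215 the third, and both miR-194 genes the fourth.
miR-200b-3p: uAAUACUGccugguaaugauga
miR-200c-3p: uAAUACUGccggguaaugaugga
miR-429-3p: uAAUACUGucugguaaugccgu
miR-200a-3p: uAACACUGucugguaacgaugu
miR-141-3p: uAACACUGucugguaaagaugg
miR-192-5p: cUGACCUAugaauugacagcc
miR-215-5p: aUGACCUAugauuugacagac
miR-194-5p: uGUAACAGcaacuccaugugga

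With positions counted from 1 at the 5′ end, the seeds of miR-200b-3p and miR-200a-3p differ by U4C alone. miR-200c-3p differs from miR-200b-3p by U11G and A22G over the 22 bases of the latter. miR-141-3p differs from miR-200a-3p by C17A and U22G. miR-215-5p differs from miR-192-5p by C1A, A12U and C20A. The tables count reads per gene, so the arms of a hairpin cannot be told apart in the values below.

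The counts of Mir194-1 and Mir194-2 are uncertain, which their hairpins show. The stretch that both share is in capitals, and it is the whole 22-base miR-194-5p.
Mir194-1: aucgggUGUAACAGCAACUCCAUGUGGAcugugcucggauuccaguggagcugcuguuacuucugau
Mir194-2: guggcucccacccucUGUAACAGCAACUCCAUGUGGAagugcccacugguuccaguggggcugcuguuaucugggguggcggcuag
A read that lies wholly within the shared stretch matches both genes equally well. Multiply mapped reads were assigned to no gene, so miR-194 was undercounted by an amount that was not measured. The first base beyond the shared stretch differs between the hairpins by C23A, counted from the first shared base and from Mir194-1 to Mir194-2. Their 3′ arms differ by A8G, C19U, U20C and C22G. For the other 8 genes the longest stretch shared with any of the other 2201 counted miRNA genes, on either strand, was 11 to 17 bases. The longest, of 17 bases, joined Mir200a and Mir141. Sequence outside the counted miRNA genes was not compared.

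The genes lie in 4 clusters and 1 single place in mm10, with annotation from GENCODE M21. Mir200b (ENSMUSG00000065549.3), Mir200a (ENSMUSG00000065400.1) and Mir429 (ENSMUSG00000065427.1) lie in this order on the minus strand of chromosome 4, within bases 156053905 to 156055750. All 3 are in introns of Ttll10, and Mir429 also overlaps an exon of the noncoding gene Gm13648. Mir200c (ENSMUSG00000065462.3) and Mir141 (ENSMUSG00000065474.1) lie on the minus strand of chromosome 6, within bases 124717914 to 124718390, with 336 bases between them. Both are in an intron of the noncoding gene Gm15884, and Mir141 overlaps an exon of Gm29008. Mir194-2 (ENSMUSG00000065582.1) and Mir192 (ENSMUSG00000065523.1) lie on the plus strand of chromosome 19, within bases 6264643 to 6264932, with 115 bases between them and no other annotated gene over them. Mir194-1 (ENSMUSG00000065581.1) and Mir215 (ENSMUSG00000065562.1) lie on the plus strand of chromosome 1, within bases 185313319 to 185313692. Mir194-1 is in an intron and Mir215 in an exon of the noncoding gene 2010103J01Rik, and both are opposite to an intron of Iars2. Mir122 (ENSMUSG00000065402.1) spans bases 65248861 to 65248926 of the plus strand of chromosome 18, where it overlaps an exon of AC157910.3, a long noncoding RNA gene.

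Library 1 held 2244073 reads on the strand of miRNA genes and library 2 held 3912280, and levels are given as read counts normalised to this total (CPM), per gene and not per length. In library 1 a single read is worth 0.446 CPM, and in library 2 it is worth 0.256 CPM. A count of 0 would allow up to 3 reads, or 1.34 and 0.767 CPM. Intervals cover counting error only, and PCR copies of a molecule are counted as separate reads. Endocrine and chromaffin markers were present, and all 6 genes of a list of them were detected. The list summed to 42237 CPM in library 1 and 43382 CPM in library 2, of which Mir375 alone held 37574 and 36561 CPM. No list was made for the steroid-producing cells of the cortex. Detected means 10 or more reads in each library, which 337 genes reached.

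The miR-200 family and the miR-192, miR-194 and miR-215 genes were present at low levels. Mir122 was the one gene of the 10 at a high level. Of the 10 genes, 6 were detected, and 9 stayed under 100 CPM in both libraries. These 9 together held 170 CPM in library 1 and 131 CPM in library 2. Mir122 alone had 5185 and 491 CPM, which was 96.8% (95% Wilson interval 96.5 to 97.1%) and 78.9% (77.3 to 80.5%) of the reads of the 10 genes. In a whole gland, fewer cells of a type and less RNA per cell cannot be told apart.

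By mean level the order was Mir122, Mir194-2, Mir192, Mir200c, Mir200b, Mir429, Mir141, Mir215, Mir200a and Mir194-1. Ranges of neighbours over the 2 libraries overlapped for Mir194-2 with Mir192, Mir200b with Mir429, Mir141 with Mir215, Mir215 with Mir200a and Mir200a with Mir194-1. Such ranges mix in the difference between the libraries, so they do not settle the order of these neighbours. Within each library Mir194-2 lay above Mir192 and Mir215 above Mir200a. Mir200b with Mir429 and Mir141 with Mir215 changed order between the libraries. Mir200a and Mir194-1 had equal reads in library 1, and Mir200a lay above in library 2. Mir122, Mir192, Mir200c and Mir429 each lay above the whole range of the next gene. The place of Mir194-2 rests on its uncertain count. Among detected genes Mir122 ranked 47 of 337, and Mir194-2, Mir192, Mir200c, Mir200b and Mir429 ranked 219, 227, 250, 292 and 300. Next to Mir122 in level stood Mir674 (2972 CPM) and Mir320 (2823 CPM), and next to Mir429 stood Mir511 (9.82 CPM) and Mir363 (8.87 CPM).

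**Figure D1:**
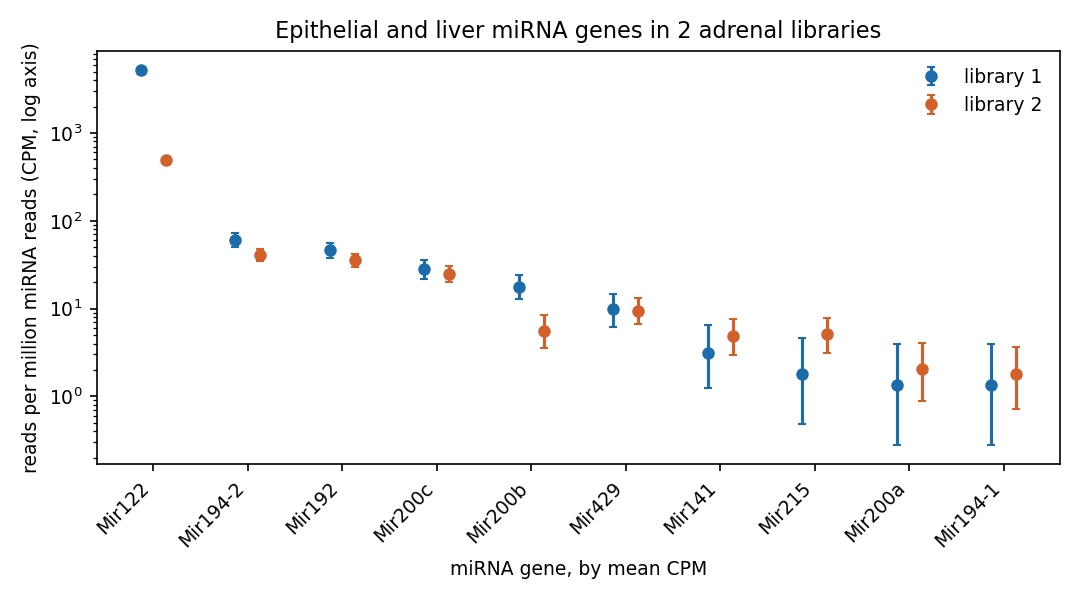
Level of each gene in CPM (log axis) in library 1 and library 2, in order of mean level, with bars for the 95% exact Poisson interval of the count. Mir122 stands at 5185 and 491 CPM, and the other 9 genes lie under 100 CPM in both libraries.

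Among the 5 genes of the miR-200 family, which mark epithelium, Mir200c of the chromosome 6 cluster was the most abundant. Mir200c had 63 reads in library 1 and 98 in library 2, or 28.1 and 25.0 CPM, with a mean of 26.6 ± 2.14 CPM (SD, n = 2). Its cluster partner Mir141 had 7 and 19 reads, or 3.12 and 4.86 CPM. Mir200c was thus at 9 times the level of its partner in library 1 and at 5.16 times in library 2.

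On chromosome 4, Mir200b was the gene on which the libraries parted. Mir200b had 40 reads in library 1 and 22 in the deeper library 2, or 17.8 and 5.62 CPM, with a mean of 11.7 ± 8.63 CPM (SD, n = 2). Mir429 had 22 and 37 reads, or 9.80 and 9.46 CPM, with a mean of 9.63 ± 0.245 CPM (SD, n = 2), and was nearly level. Mir200a, the least abundant of the family, had 3 and 8 reads, or 1.34 and 2.04 CPM. So few reads leave its level in library 1 uncertain, with a 95% exact Poisson interval of 0.276 to 3.91 CPM. The whole family summed to 135 and 184 reads, or 60.2 CPM (95% exact Poisson interval 50.4 to 71.2) and 47.0 CPM (40.5 to 54.3). By seed, Mir200b, Mir200c and Mir429 together held 55.7 and 40.1 CPM, and Mir200a with Mir141 held 4.46 and 6.90 CPM.

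Of the miR-192, miR-194 and miR-215 genes, both genes of the chromosome 19 cluster were detected and neither of the chromosome 1 cluster was. Mir192 had 103 reads in library 1 and 140 in library 2, or 45.9 and 35.8 CPM, with a mean of 40.8 ± 7.15 CPM (SD, n = 2). Mir194-2 had 136 and 161 reads, or 60.6 and 41.2 CPM, with a mean of 50.9 ± 13.8 CPM (SD, n = 2). On chromosome 1, Mir215 had 4 and 20 reads, or 1.78 and 5.11 CPM, and Mir194-1 had 3 and 7 reads, or 1.34 and 1.79 CPM.

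The chromosome 19 cluster thus held 107 and 76.9 CPM and the chromosome 1 cluster 3.12 and 6.90 CPM. Mir192, whose strand is distinct from that of Mir215 at 3 of 21 bases, had 25.8 times the reads of Mir215 in library 1 and 7 times in library 2. Mir194-2 had 45.3 and 23.0 times the reads of Mir194-1, whose main mature strand is identical. The part of reads left out as mapped to several places in this last ratio was not tested.

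Mir122 was set apart from the others both by its level and by its difference between the libraries. It had 11635 reads in library 1 and 1919 in library 2. The mean level was 2838 ± 3319 CPM (SD, n = 2), so that the SD exceeds the mean. It ranked 35 among all genes in library 1 and 107 in library 2. Mir122 was at 113 times the level of Mir192 in library 1 and at 13.7 times in library 2. Against Mir375, the abundant endocrine miRNA of the gland, it stood at 0.138 times in library 1 and 0.0134 times in library 2.

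**Figure D2:**
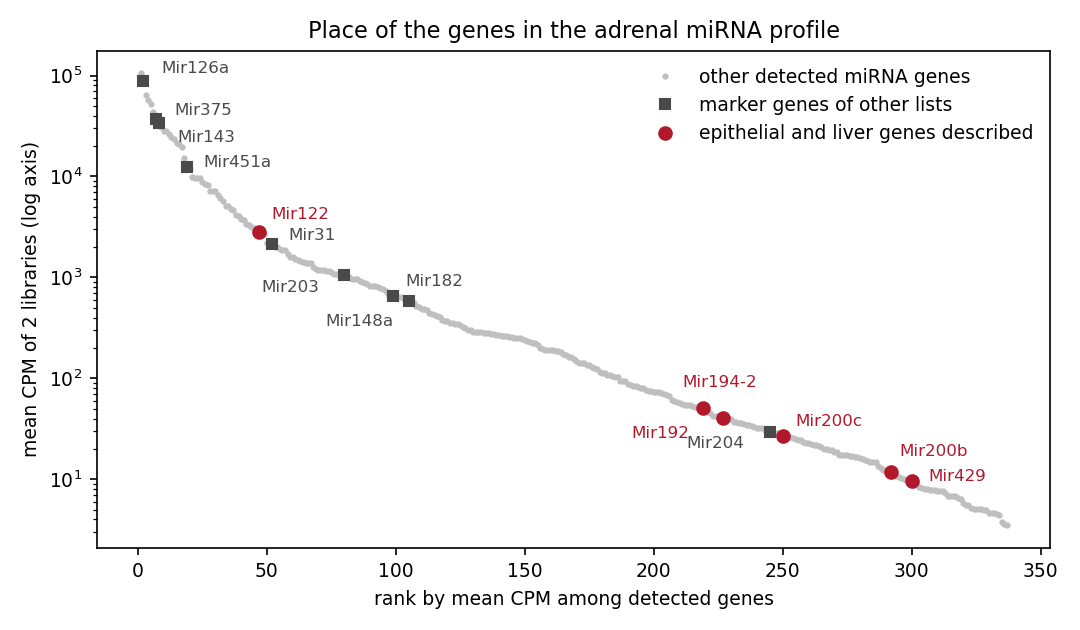
Mean CPM of both libraries (log axis) against the rank of the 337 detected genes. Red circles are the 6 detected epithelial and liver genes. Dark squares are a selection from the other marker lists: Mir375, Mir126a, Mir143, Mir451a, Mir31, Mir203, Mir182, Mir148a and Mir204. Other detected marker genes, such as Mir223 at rank 204 and Mir96 at rank 269, are among the grey points. Mir122 stands at rank 47, and Mir194-2, Mir192, Mir200c, Mir200b and Mir429 stand at ranks 219 to 300.

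Of the other epithelial miRNAs, some lay far above the sum of the miR-200 family in the same libraries and some below that sum. Of 6 further genes known from epithelium (Mir203, Mir205, Mir31, Mir183, Mir96 and Mir182), 5 were detected, and the list summed to 4568 CPM in library 1 and 3695 CPM in library 2. Mir31, which fibroblasts also express, was at 38.7 and 40.7 times the sum of the miR-200 family. Mir203, a miRNA of skin epithelium, was at 22.1 and 16.2 times that sum, and Mir182, which neuroendocrine and sensory cells also express, at 9.32 and 15.8 times. Mir205, a marker of stratified epithelium, had 6 and 7 reads, or 2.67 and 1.79 CPM, and was not detected. Mir96, a neighbour of Mir182 in the genome, had 15.6 and 23.0 CPM, which is below the sum of the miR-200 family. The epithelial genes therefore did not stand at a common level.

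Of 3 other genes enriched in kidney, Mir204 had 30.3 and 29.1 CPM, Mir190a had 28.1 and 57.3 CPM, and Mir802 had 2 reads in each library. Mir204 thus lay between Mir192 and Mir200c by mean level. Mir802, which is also known from liver, was at or under the 3 reads that a count of 0 allows. Of the other liver-enriched genes, Mir148a had 619 and 555 CPM and Mir101b 729 and 542 CPM. Both are also expressed widely outside the liver. Mir122 was 8.37 times Mir148a in library 1 and 0.884 times in library 2.

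The libraries were compared gene by gene with a two-sided exact binomial test of the reads, which compares these 2 libraries and not conditions. All 10 genes had the 10 reads in sum that the test required. Of the 411 genes tested, 58.4% passed a Benjamini-Hochberg adjusted p of 0.05, 29.4% as higher in library 2 and 29% as higher in library 1. Those higher in library 2 were 50.4% of the passing genes, 61.7% with no filter on low counts and 42.9% with scaling by library size alone. Of the 10 genes, 3 passed, all of them as higher in library 1: Mir122, Mir200b and Mir194-2. The median log2 ratio of library 2 over library 1 was -0.03 over the 10 genes and -0.07 over all genes tested. The count of 3 lies below the share over all genes, and most of the 10 have few reads. Of the 56 other tested genes within 1 log2 unit of the mean level of Mir200a, 8.93% passed, against 96.7% of the 30 near Mir122.

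Mir122 was 9.96-fold higher in library 1 (95% interval 9.49 to 10.4), a log2 ratio of -3.32. Only 4 of the 411 genes tested had a larger log2 ratio in either direction, and none of the 30 other genes near its level did, whose ratios ran from -1.53 to 1.35. Of the 238 other genes with 200 or more reads, those with the nearest log2 ratio over the 2 libraries were the neutrophil miRNA Mir223 (-2.12), mmu-mir-3535 (-1.95) and Mir22 (-1.84). The gap from Mir122 to the nearest of them was 1.20 log2 units, and 1 of the 238 was higher in library 1 by more than Mir122. The other liver-enriched genes that were tested, Mir148a and Mir101b, did not differ by a like amount. Mir148a had a log2 ratio of -0.07 (95% interval -0.17 to 0.02) and Mir101b of -0.34 (-0.43 to -0.25). Both are also expressed widely outside the liver, and Mir802, with 2 reads in each library, was not tested.

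Markers of other cells also differed between the libraries. The erythroid list of 3 genes held 680 CPM in library 1 and 25715 CPM in library 2. Its member Mir486 went the other way, 2.04-fold higher in library 1, on only 107 and 86 reads. The endothelial Mir126a held 53762 and 121007 CPM, a log2 ratio of 1.26. With the unstranded column its log2 ratio was 0.87 and did not pass (exact binomial test, adjusted p = 0.506). A ratio of that size fails this test only on few reads, so that setting cannot decide on Mir126a. Mir451a, Mir486 and the leukocyte gene Mir142 were not tested with the unstranded column. Of the 6 endocrine and chromaffin genes, Mir7-1, Mir7-2, Mir7b, Mir137 and Mir153 passed as higher in library 2 in each scaling. Mir375, which holds most of the reads of this list, was close to level, with a log2 ratio of 0.05 that turned to -0.04 with scaling by library size alone. The leukocyte list of 5 genes held 2126 and 1612 CPM, with 3 genes higher in library 1, 1 higher in library 2 and 1 not passing. The smooth muscle and fibroblast list of 6 genes held 28940 and 41834 CPM, nearly all of it Mir143, with 2 genes higher in library 2, 1 higher in library 1 and 2 not passing of the 5 tested. The exocrine pancreas list of 3 genes had 4 reads in each library. The striated muscle list of 9 genes had 13 reads in each, with 6 of its genes at 0 in both. Reads mapped to several places were assigned to no gene, and the listed genes were not compared with one another in sequence. Low counts of these genes therefore do not show that a miRNA was absent. The part of any of these marker differences, or of dissection, in the Mir122 difference was not tested.

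Mir200b was 2.96-fold higher in library 1 (95% interval 1.77 to 4.95; exact binomial test, adjusted p = 7.5e-05), and 4 of the 63 other genes near its level had a larger ratio in either direction. Mir194-2 was 1.39-fold higher in library 1 (1.11 to 1.74; exact binomial test, adjusted p = 0.0113), a size that 36 of the 65 other genes near its level exceeded. With no filter on low counts, which changes the scaling and the number of genes tested, Mir194-2 no longer passed (exact binomial test, adjusted p = 0.213).

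The other 7 genes did not pass. Mir215 had a log2 ratio of 1.47 (95% interval -0.00026 to 2.94; exact binomial test, adjusted p = 0.0582), the highest of the 10. Mir192 had a log2 ratio of -0.27 (-0.64 to 0.09), Mir200c of -0.08 (-0.54 to 0.37) and Mir429 of 0.02 (-0.73 to 0.78). The sign for Mir200c turned with no filter on low counts and that for Mir429 with scaling by library size alone. Mir141, Mir200a and Mir194-1 had log2 ratios of 0.66 (-0.55 to 1.88), 0.56 (-1.23 to 2.36) and 0.38 (-1.45 to 2.21). At this depth such intervals allow a difference of more than 2-fold either way for Mir200a and Mir194-1.

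**Figure D3:**
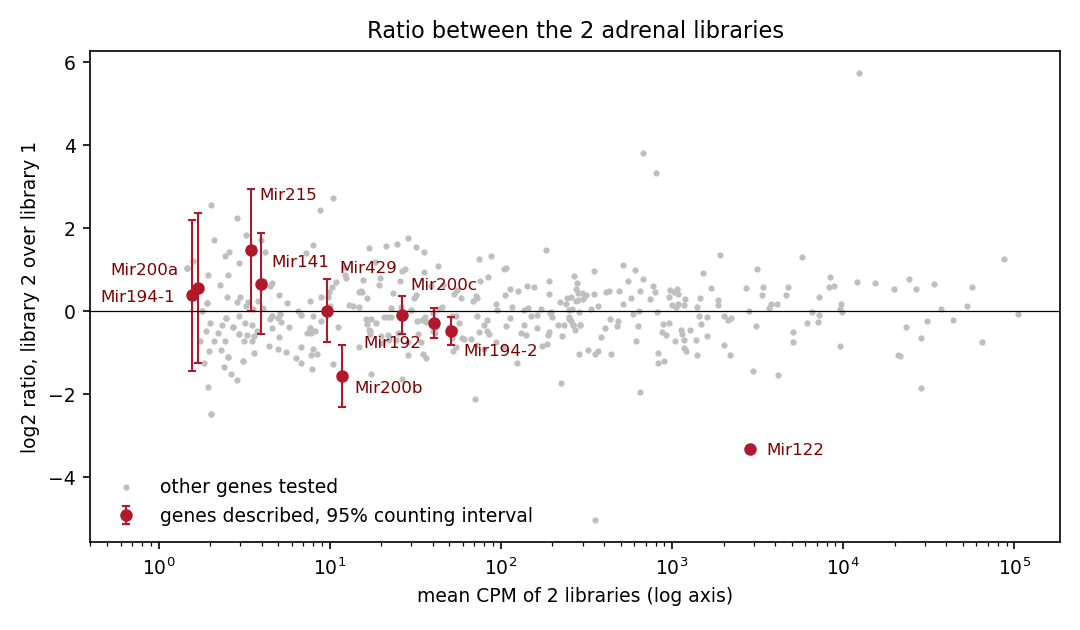
Log2 ratio of library 2 over library 1 against the mean CPM (log axis), with grey points for the other genes tested and red points with 95% counting intervals for the 10 genes. Mir122 lies at -3.32, below the grey points of like level, and Mir200b at -1.56, while most of the intervals of the others cross 0.

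Comparing partners of a cluster removes the scaling between the libraries. Within the chromosome 4 cluster, Mir200b took 61.5% of the reads in library 1 (95% Wilson interval 49.4 to 72.4%) and 32.8% in library 2 (22.8 to 44.7%). Mir429 took 33.8% (23.5 to 46.0%) and 55.2% (43.4 to 66.5%), so that the leading gene of the cluster was Mir200b in library 1 and Mir429 in library 2. The log2 ratio of Mir200b lay below that of Mir429 by -1.58 (95% interval -2.64 to -0.53), and below that of its seed partner Mir200c by -1.48 (-2.35 to -0.61). These intervals have no adjustment for the 12 differences computed.

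In the chromosome 6 and chromosome 19 clusters the intervals of the shares overlapped between the libraries. Mir200c took 90.0% (80.8 to 95.1%) and 83.8% (76.0 to 89.4%) of its cluster, and Mir192 took 43.1% (37.0 to 49.4%) and 46.5% (41.0 to 52.2%) of its own. The log2 ratio of Mir141 differed from that of Mir200c by 0.75 (-0.55 to 2.04), an interval that also holds differences as large as that of Mir200b. The log2 ratio of Mir192 differed from that of Mir194-2 by 0.20 (-0.29 to 0.69). Of the 2 paralogous miR-194 clusters, that of chromosome 1 had 7 and 27 reads and that of chromosome 19 had 239 and 301. The log2 ratio of the former exceeded that of the latter by 1.54 (0.35 to 2.73). This difference rests on few reads and on uncertain miR-194 counts, and neither chromosome 1 gene passed by itself. Like the intervals above, this one is not adjusted for the number of differences computed. The sum of the miR-200 family and the sum of the miR-192, miR-194 and miR-215 genes did not part beyond counting error, with a difference of 0.03 (-0.37 to 0.43) between their log2 ratios. The log2 ratios of these sums were -0.27 (-0.59 to 0.05) and -0.30 (-0.54 to -0.06). That of Mir122 lay below the sum of the other 9 genes by -3.03 (-3.23 to -2.82).

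**Figure D4:**
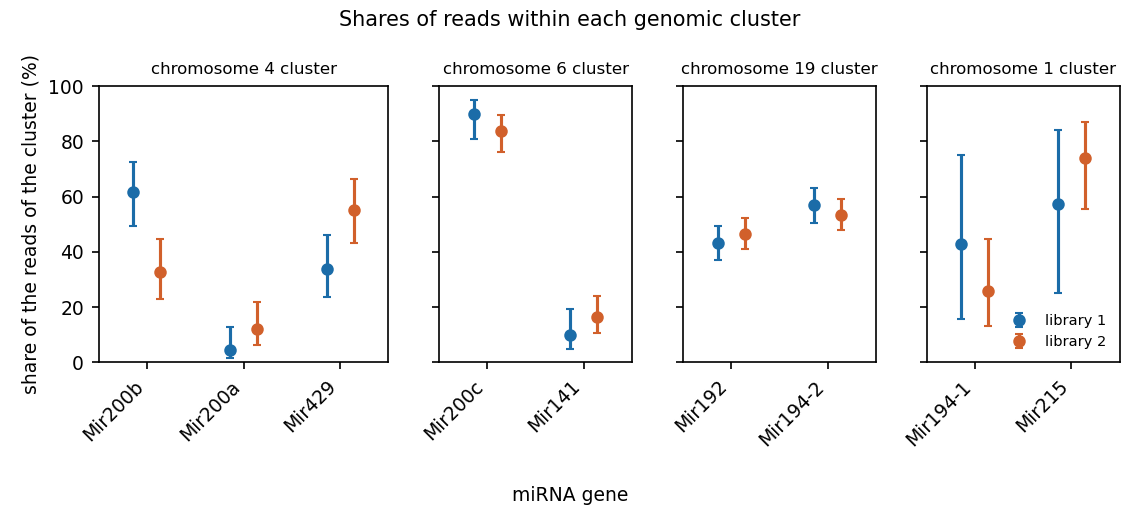
Share of the reads of each genomic cluster (%) held by its genes in library 1 and library 2, with bars for 95% Wilson intervals. In the chromosome 4 cluster Mir200b has 61.5% in library 1 and 32.8% in library 2, while the shares in the chromosome 19 cluster differ little.

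Reads on the opposite strand were nearly absent at these genes. In all, 3 such reads were counted at 2 of the 10 genes, Mir200a and Mir194-1, and none at the other 8, so the unstranded counts equalled the strand counts at these 8.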

How the data were processed

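MicroRNA-seq of 2 adrenal libraries was used, 1 library per numbered animal. For each library the authors deposited a table of raw read counts by miRNA gene, mapped to mm10 per the labels, with the GENCODE M21 annotation per the text deposited with each table. Aligner, counter and trimming were not given in the sources used here. Files lack a header line. From their layout and totals, the column of the stranded counts with the larger total was taken as the strand of the gene. GENCODE M21 gave symbols for all 2202 identifiers.

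Rows that name no gene made up 71.7% of the reads of library 1 and 64.9% of library 2 and were left out of library sizes. Reads mapped to several places were 28.4% and 27.5%. Whether CAST variants lowered mapping to the reference was not tested.

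Levels are CPM. A quasi-likelihood test has no coefficient with 1 group, so genes with at least 10 reads over both libraries were put to a two-sided exact binomial test on edgeR 4.0.16 TMM effective library sizes, adjusted by Benjamini and Hochberg over all 411 genes. The p-values cover counting error only. Log2 ratios have 0.5 read added and 95% intervals. Alternatives used DESeq2 1.42.0 size factors, library size, other filters and the unstranded column. The test was checked on simulated data whose scatter was counting error only, so this check covers no other scatter between libraries. R 4.3.3, scipy 1.17.1, numpy 2.4.6, pandas 2.3.3, matplotlib 3.10.9 and Python 3.11.15 were used.

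The members, lists and tests were chosen with earlier results of these data known. Named genes are the 10 members, genes of the marker lists, the 3 genes with 200 or more reads nearest to Mir122 in log2 ratio, and the rank neighbours of the most and least abundant detected member.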

Additional observations from a re-analysis of the deposited data

How the results depend on the processing

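Under the other scalings and filters and with the unstranded column, 219 to 240 genes passed the exact binomial test, against 240 in the main setting. Of the 10 genes, 3 passed in each setting except with no filter on low counts, where Mir200b and Mir122 passed and Mir194-2 did not. That setting tested 751 genes in place of 411 and shifted all log2 ratios by 0.17. The share of passing genes that were higher in library 2 was 50.4%, 61.7% with no filter and 42.9% with scaling by library size alone. The log2 ratio of Mir200c was 0.0833 with no filter and that of Mir429 was -0.0649 with scaling by library size alone, both of the opposite sign to the main value and both without passing. The other 47 alternative log2 ratios of the 10 genes kept their sign and their side of the threshold. The summed level of the 10 genes was 2988 CPM, and leaving out each replicate in turn gave 621 to 5355 CPM, most of it Mir122. With library 1 alone 6 genes had 10 or more reads and with library 2 alone 8, Mir141 and Mir215 being added. Relative to all reads of a library, levels are lower by construction. No paired analysis was possible because the labels give a single group.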
